A study of Mus musculus with 2 samples.

Results

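The genes described here encode SNARE proteins, synaptotagmins and the factors that work on them: 44 genes named by symbol and looked up in a gene table of mouse genome build GRCm38, out of 21887 protein-coding genes. Of these, 43 could be measured. The place the table gives Vamp7, a vesicle SNARE of late endosomes, lies at the very start of chromosome X (10737 to 39191), where neither library had a read of any mapping quality, and Vamp7 is left out of every count below.

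SNARE proteins sit on vesicles and on target membranes and zip together into a bundle that pulls the membranes into fusion. Synaptotagmins carry C2 domains, which in many of them bind calcium and couple fusion to calcium entry, complexins bind the assembled bundle, SM proteins guide its assembly, and the ATPase NSF with its SNAP adaptors takes spent bundles apart. In the retina, photoreceptors and bipolar cells release glutamate from ribbon synapses, which are known to use syntaxin 3 and the complexins of Cplx3 and Cplx4, whereas conventional synapses use syntaxin 1 with the complexins of Cplx1 and Cplx2.

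The study compared chromatin accessibility in the neural retina of adult C57BL/6 littermates, of wild-type or Gabra3 knockout genotype. Gabra3 encodes a subunit of the GABA-A receptor. The labels give no knockout allele, sex or age beyond adult, and do not say whether tissue of several animals was pooled. The assay was ATAC-seq, which uses a transposase, Tn5, to cut accessible DNA and attach adapters at the cut, so each sequenced end marks an insertion. Each genotype has 1 library, made from 20000 nuclei of frozen whole tissue and sequenced with 75 bp reads.

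The files held 9170838 wild-type and 9038110 knockout reads, which gave 7635799 and 7646373 insertions after poorly placed reads and repeats were removed. Marker genes were counted over the whole gene with 5 kb on either side. All 6 rod marker genes examined had an open region in both libraries summed, at 10.7 to 63.6 wild-type insertions per kb. The pigment epithelium genes Rpe65 and Tyr and the non-retinal genes Alb, Cd3e and Krt5 had none. Best1 and Mitf, also listed for pigment epithelium, had 4 open regions each, and Myh6 and Ins2, listed as non-retinal, had 1 each. Of the bipolar cell genes, 2 of 3 had an open region, at 3.06 to 7.75 wild-type insertions per kb. The 2 amacrine genes (3.73 to 7.29), 2 ganglion cell genes (3.65 to 3.70) and 2 Muller glia genes (6.32 to 12.4) each had one. For Sag (rod), Tfap2a and Gad1 (amacrine), Best1, Myh6 and Ins2, none lay within 500 bp of the gene end with more insertions. The 5 non-retinal genes lay at 1.09 to 4.70, which overlaps the bipolar, amacrine and ganglion cell ranges. The body of Gabra3 held 126 wild-type and 121 knockout insertions and no open region, so it gives no check of the genotype label. With 1 library per genotype, every ratio compares 2 libraries and not the genotypes, there is no replicate check, and no p was computed. Intervals are exact (Clopper-Pearson) at 95% and cover counting error only. Whole retina mixes many cell types, so more cells of a type and more accessibility per cell cannot be told apart.

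The promoter window of a gene reaches 500 bp to each side of whichever of its ends held more insertions, and a level below is the number of insertions in that window, the same length for every gene. The 43 members had a median of 123 insertions summed over both libraries, against 26 for all protein-coding genes, and 24 of them reached 100. An open region, a stretch with more insertions than its surroundings, lay within 500 bp of the chosen end in 36 of the 43, against a background of 50.6% of all genes. The levels spanned a wide range, from 433 summed at Napa, rank 409 among all genes, to 6 at Stx3.

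**Figure D1:**
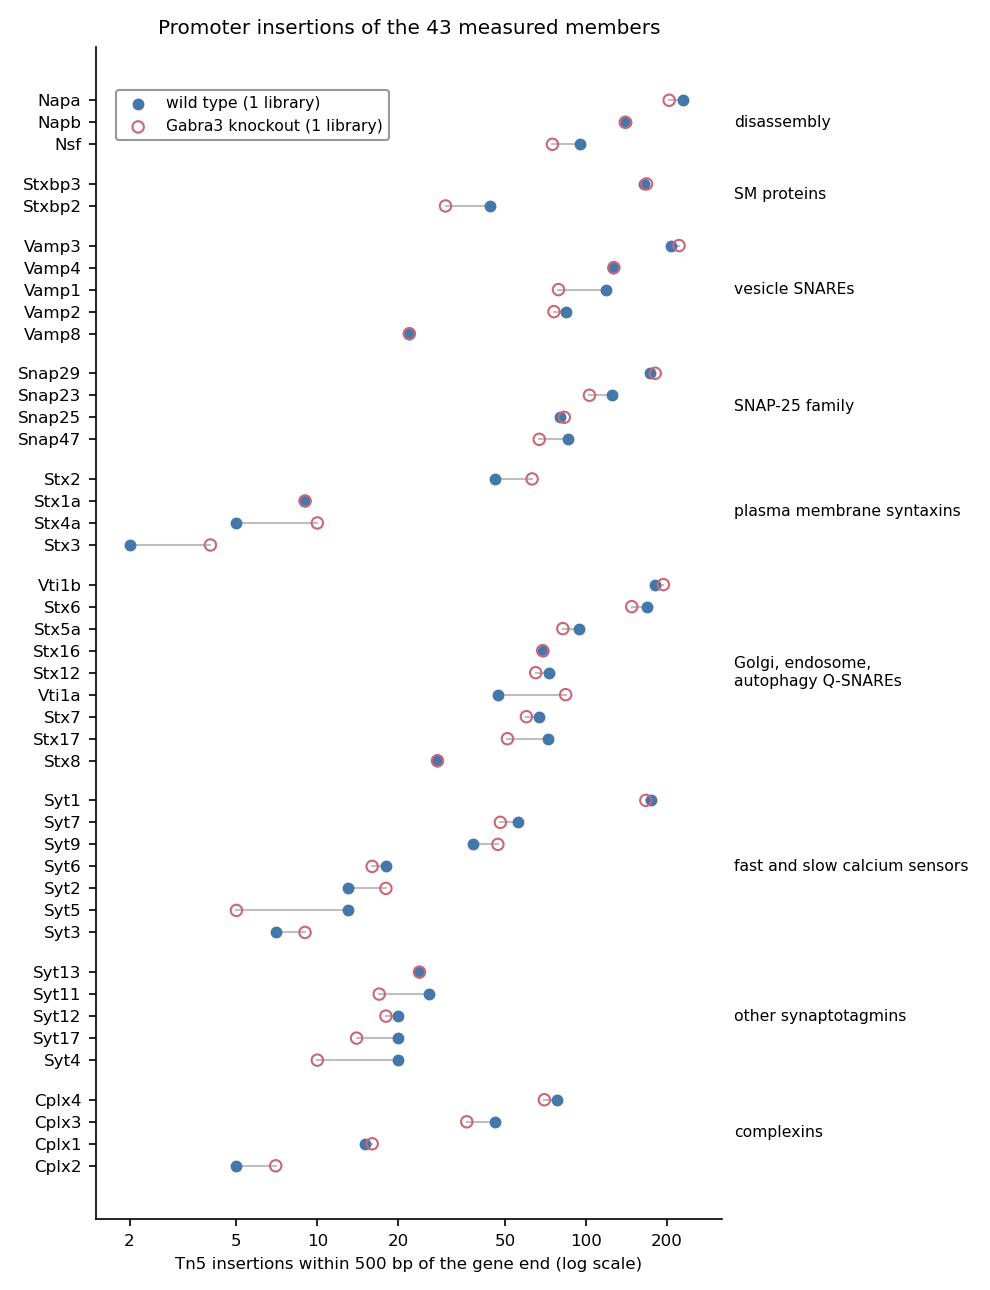
Insertions within 500 bp of the chosen gene end (log axis) for the 43 measured members, grouped by role, with a filled point for the wild-type library and an open point for the knockout library. Each pair of points lies close together in most rows, and the visible gaps at high levels are Vti1a (47 and 84) and Vamp1 (119 and 79).

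The genes that disassemble spent SNARE bundles were among the most accessible members. Napa, which encodes the widely expressed alpha adaptor of NSF, held 229 wild-type and 204 knockout insertions (chromosome 7, gene at 16098202 to 16117982). Napb, its neuronal counterpart, held 141 and 140, and Nsf, the ATPase itself, held 95 and 75. The log2 ratio of knockout over wild type was -0.11 for Napa (-0.39 to 0.17), 0.05 for Napb (-0.30 to 0.40) and -0.28 for Nsf (-0.74 to 0.17), so every interval included 0. Of the SM proteins, Stxbp3, which works with syntaxin 4 in many cell types, held 165 and 168 insertions, and Stxbp2, known from epithelial and blood cells, held 44 and 30.

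The vesicle SNAREs were led by genes of endosomes and the Golgi, ahead of the synaptobrevins of synaptic vesicles. Vamp3, the SNARE of recycling endosomes, held 207 and 222 insertions and Vamp4, of the trans-Golgi network, held 126 and 127. Vamp1 held 119 and 79, and Vamp2, the main synaptobrevin of brain synapses, held 84 and 76 (-0.08, -0.55 to 0.38). Vamp8, of late endosomes and secretory granules, held 22 in each library. For Vamp2 the choice of end was less clear than elsewhere: in the other 23 members with at least 100 insertions the chosen end held over 4 times as many as the far end, and in Vamp2 it did not.

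In the SNAP25 family the broadly used genes Snap29 and Snap23 were ahead of the synaptic Snap25. Snap29, a SNARE of autophagosomes and endosomes, held 173 wild-type and 181 knockout insertions, in a window that also reaches an end of Pi4ka. Snap23, the broadly expressed partner of plasma membrane syntaxins, held 125 and 103. Snap25, the synaptic form, held 80 and 83 (0.11, -0.35 to 0.57), and Snap47 held 86 and 67 (-0.30, -0.78 to 0.18) in a window shared with Jmjd4. The open region at the Snap25 start was the broader of these, 1350 bp wide with 118 and 112 insertions, against 750 bp and 119 and 99 for Snap23.

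The SNAREs of the Golgi, endosomes and autophagosomes were accessible throughout, with 56 insertions summed at the lowest of the 9, Stx8, and an open region at each promoter. Vti1b, of late endosomes, held 181 and 194 insertions and Stx6, of the trans-Golgi network, held 168 and 148. Stx5a, which acts between endoplasmic reticulum and Golgi, held 94 and 82 in a window that also reaches an end of 1700092M07Rik. Stx16 held 69 in each library. Stx12 and Stx7, both endosomal, held 73 and 65 and 67 and 60. The remaining values of the group are those of Vti1a, Stx17 and Stx8 (28 in each), of which the former 2 had the group's largest ratios, given below.

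The synaptotagmins divided into Syt1 and the rest. Syt1, the calcium sensor of fast transmitter release, held 175 wild-type and 167 knockout insertions at its promoter (-0.01, -0.32 to 0.31). Its open region there was 1700 bp wide with 320 and 280 insertions, rank 136 of the 36839 open regions (chr10:109010551-109012250). Syt7, a slow sensor of high calcium affinity, held 56 and 48, and Syt9 held 38 and 47. At the annotated start of Syt9, 441 bp inside, the counts were 61 and 71, so the order of Syt7 and Syt9 depends on the window. At the gene ends the 9 other synaptotagmins ranged from 16 summed in Syt3 to 48 in Syt13. Syt2, a fast sensor in neurons such as those of the brainstem, held 13 and 18 insertions. It was the only measured member with no open region anywhere in its locus (the gene with 5 kb on either side). Syt4 held 20 and 10 and Syt5 held 13 and 5, counts at which the intervals of the ratio (-2.20 to 0.22 and -3.16 to 0.26) spanned over 4-fold.

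Of the complexins, the ribbon synapse pair was more accessible than the conventional pair. Cplx4 held 78 wild-type and 70 knockout insertions (-0.10, -0.58 to 0.39) and Cplx3 held 46 and 36 (-0.29, -0.97 to 0.37). Cplx1 held 15 and 16 and Cplx2 held 5 and 7. For Cplx2 the rule picked the far end of the gene, 81367 bp from its annotated start, and the counts at that start were 10 and 11. The intervals of the ratio for all 4 included 0.

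The plasma membrane syntaxins were the group with the lowest levels by this rule, with a median of 16.5 insertions summed, and here the rule for the promoter mattered. The gene table marks the outer limits of a gene, and the annotated starts of RefSeq, available for 33 members, lay over 500 bp from the chosen end in 7 of them. For Stx3 the rule picked the far end, 44285 bp away. At the annotated start of Stx3 the count was 24 wild-type and 30 knockout insertions, and open regions centred at 653 and -622 bp from it held 59 and 74 and 25 and 15. Stx4a, the syntaxin of regulated exocytosis outside neurons, held 5 and 10 insertions at the gene end and 76 and 58 at a start 1165 bp within the gene. Stx2 kept its place, with 46 and 63 at the end and 45 and 63 at the start. Stx1a, the syntaxin of conventional synapses, held 9 in each library at either position, with a weak open region of 5 and 7 insertions.

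Other members moved the same way. Syt11 held 26 and 17 insertions at the gene end and 46 and 39 at a start 2560 bp inside. Syt3 held 7 and 9 at the end and 26 and 30 at a start 1353 bp inside, where an open region held 44 and 40. Syt6 rose less, from 18 and 16 to 20 and 25 at a start 881 bp inside, Cplx2 held 10 and 11 at its start, and Syt2 held 21 and 18 at a start 62766 bp within the gene, still with no open region. Of the 33 members with an annotated start, 32 had an open region within 500 bp of one, against 54.4% of 17492 genes. Counting the chosen end or an annotated start, 41 of the 43 measured members had an open region.

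**Figure D2:**
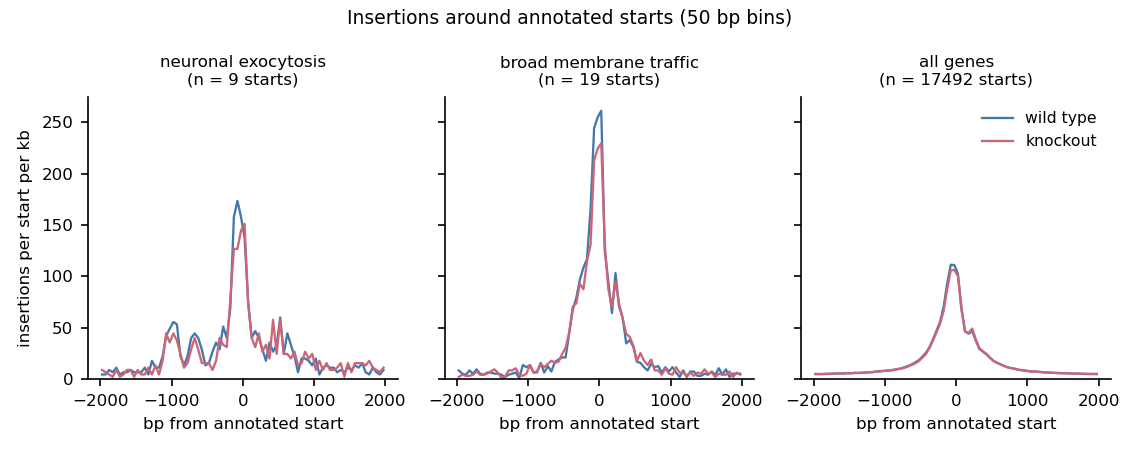
Insertions per start per kb in 50 bp bins around the annotated start with most insertions, for 9 members of neuronal exocytosis, 19 members of broad membrane traffic and all 17492 genes with a start, 1 line per library. In each panel the lines of the libraries follow each other, and the broad members have the highest peak. The neuronal Snap25, Vamp2 and Cplx4 and the broad Vamp3 have no annotated start here and are left out.

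When members were split by known use, into 12 of neuronal exocytosis and 20 measured members of broad membrane traffic, the median promoter held 115 and 161.5 insertions summed, and 9 of 12 and 19 of 20 had an open promoter. These values use the chosen gene ends. The neuronal Stx3 and Cplx2 and the broad Stx4a count as not open there, though each had an open region at its annotated start. Within 100 bp of the annotated start the neuronal members averaged 136 wild-type and 124 knockout insertions per start per kb, the broad members 221 and 199, and all genes 98.5 and 94.8. These averages leave out members without an annotated start. Those are the neuronal Snap25, Vamp2 and Cplx4 (163, 160 and 148 summed at the chosen ends) and the broad Vamp3 (429). The shoulder before the start in the panel of neuronal members lies where the wide region of Syt1 reaches upstream, and with 9 starts a single gene can shape the line.

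The sequences before 7 annotated starts are given here, from RefSeq, build GRCm38.p6. Each is 250 bases ending at the base before the start, written 5′ to 3′ on the strand of the gene. They are Napa (chr7:16098330-16098579, plus strand), the most accessible member; Syt1 (chr10:109010976-109011225, minus strand), the most accessible sensor; Vti1a (chr19:55315807-55316056, plus strand) and Vamp1 (chr6:125215331-125215580, plus strand), the members at the 2 ends of the ratio; Stx3 (chr19:11819404-11819653, minus strand) and Cplx3 (chr9:57606282-57606531, minus strand) of the ribbon synapse; and Stx1a (chr5:135023232-135023481, plus strand) of the conventional synapse. Capitals mark matches, on either strand, to the short motifs spelled out in the next paragraph.
Napa: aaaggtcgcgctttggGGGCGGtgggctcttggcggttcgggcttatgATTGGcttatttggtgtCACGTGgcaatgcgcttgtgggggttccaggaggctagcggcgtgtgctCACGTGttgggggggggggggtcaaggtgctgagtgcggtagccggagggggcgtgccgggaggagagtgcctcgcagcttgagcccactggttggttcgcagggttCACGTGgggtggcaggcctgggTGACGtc
Syt1: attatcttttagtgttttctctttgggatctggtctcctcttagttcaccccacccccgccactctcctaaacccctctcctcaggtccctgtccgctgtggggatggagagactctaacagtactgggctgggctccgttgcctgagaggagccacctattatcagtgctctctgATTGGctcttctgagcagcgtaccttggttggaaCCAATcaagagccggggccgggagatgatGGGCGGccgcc
Vti1a: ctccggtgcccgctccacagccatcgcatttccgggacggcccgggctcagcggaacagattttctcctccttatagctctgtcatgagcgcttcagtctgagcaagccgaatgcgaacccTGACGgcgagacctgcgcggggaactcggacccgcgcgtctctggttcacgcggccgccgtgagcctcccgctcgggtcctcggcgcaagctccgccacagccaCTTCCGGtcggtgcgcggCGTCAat
Vamp1: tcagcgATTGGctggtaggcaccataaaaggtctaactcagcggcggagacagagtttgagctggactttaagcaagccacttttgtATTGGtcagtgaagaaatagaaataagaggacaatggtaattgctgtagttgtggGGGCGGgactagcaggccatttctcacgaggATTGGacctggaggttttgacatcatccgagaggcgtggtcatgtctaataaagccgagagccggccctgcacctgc
Stx3: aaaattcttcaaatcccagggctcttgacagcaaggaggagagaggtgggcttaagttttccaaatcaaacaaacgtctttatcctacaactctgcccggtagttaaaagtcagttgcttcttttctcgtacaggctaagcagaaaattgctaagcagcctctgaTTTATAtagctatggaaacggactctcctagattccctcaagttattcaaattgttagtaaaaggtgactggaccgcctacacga
Cplx3: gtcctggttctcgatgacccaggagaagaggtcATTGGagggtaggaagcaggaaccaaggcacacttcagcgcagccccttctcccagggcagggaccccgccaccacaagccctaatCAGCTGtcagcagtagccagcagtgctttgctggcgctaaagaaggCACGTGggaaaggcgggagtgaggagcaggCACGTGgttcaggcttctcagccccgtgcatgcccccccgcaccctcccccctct
Stx1a: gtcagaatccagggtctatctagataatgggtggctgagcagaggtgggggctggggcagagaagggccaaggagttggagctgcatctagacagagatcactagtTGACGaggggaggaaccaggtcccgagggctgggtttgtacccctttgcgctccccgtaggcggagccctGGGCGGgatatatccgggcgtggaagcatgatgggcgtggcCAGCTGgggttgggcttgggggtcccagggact

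These stretches themselves held 85 wild-type and 62 knockout insertions in Napa, 80 and 72 in Syt1, 12 and 22 in Vti1a, 68 and 41 in Vamp1, 24 and 11 in Cplx3, 7 and 3 in Stx1a, and 0 and 1 in Stx3. The motifs searched on both strands of the whole table's windows of 300 bases (250 before the start, 50 after) were the SP/KLF box GGGCGG, found in 21 of the 33 members and 47.7% of 17492 promoters, the NF-Y box CCAAT, in 12 and 38.9%, the short CRE motif TGACG, in 10 and 24.2%, and the full CRE TGACGTCA, which contains the short one, in 2 and 2.37%. The E-box CACGTG was found in 6 members and 1400 of the 17492 promoters, the E-box CAGCTG in 9 and 15.0%, the ETS core CCGGAAG in 4 and 12.3% and the NRF1 core GCGCATG in 4 and 4.99%. The YY1 core AAGATGG was found in 1 member and 6.37% of promoters, the TATA box TATAAA in 1 and 13.0%, the CRX core TAATCC, the site of a photoreceptor homeodomain factor, in 1 and 6.45%, and the left part of the RE1 element TTCAGCACC in 0 and 0.400%. A match describes the letters only. The TATA box and the CRX core were both in Stx3, the latter in the 50 bases after the start that are not printed, and the Stx3 stretch printed above was nearly free of insertions.

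In composition, Vti1a is the richest in CpG of the 7 stretches, with 32 in 250 bases, and Stx3 the poorest, with 6. Counting as CpG-rich a window of 300 bases with GC over 50% and CpG at over 0.6 of the number its base composition predicts, 24 of the 33 members were CpG-rich, against 47.2% of all promoters. These were 16 of 19 broad members and 4 of 9 neuronal ones, without the neuronal Snap25, Vamp2 and Cplx4 and the broad Vamp3. Over all genes CpG-rich promoters had a median of 173 insertions summed and the others 7. Over the 9 neuronal members the order was the other way, at 35 for the 4 CpG-rich (Vamp1, Syt2, Cplx1 and Stx1a) and 82 for the others, which included Syt1 and Napb. Across members the Spearman correlation of insertions with the CpG ratio was 0.33 (n = 33 genes), against 0.76 across all 17492 genes. Genes are not independent replicates, and all points share the same 2 libraries.

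The comparison of the libraries asks how accessibility at these genes differs between the wild-type and the Gabra3 knockout retina. Summed over the 43 promoters, with shared positions counted once, the wild-type library held 3131 insertions and the knockout library 2966. After scaling to the autosomal insertions in open regions the log2 ratio was -0.02 (-0.09 to 0.05). Scaled to all autosomal insertions, which lowers every ratio by 0.06, it was -0.08 (-0.15 to -0.01). The promoters of all protein-coding genes summed gave 0.02 under the first scaling. The 24 promoters with at least 100 insertions had a median log2 ratio of -0.09, against 0.02 for all 7509 such promoters, with 10 above 0 and 14 below. Their spread was wider, with an SD of 0.29 over the members and 0.19 over all promoters. The SD over the 24 members includes Vti1a (0.89), the highest ratio of all 7509, and was not computed without it.

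At 2-fold, 0 of the 24 stood higher and 0 stood lower in the knockout, and the background was 0% of the 7509 in each direction. At 1.5-fold, Vti1a was higher (background 0.519%) and no member was lower (background 0.226%). The interval lay wholly above 0 in 1 of 24, Vti1a (background 1.81%), and wholly below 0 in 1 of 24, Vamp1 (background 0.972%). In 22 of the 24 the whole interval lay within 2-fold, and in 14 within 1.5-fold, so that counting error leaves no room for a larger difference between these libraries there. Over all 7509 promoters these shares were 98.0% and 61.4%, against 91.7% and 58.3% of the members. Of the 19 measured members under 100 insertions, 4 (Cplx3, Stx8, Syt13 and Vamp8) had an interval within 2-fold, and in the other 15 the counts leave room for 2-fold or more.

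**Figure D3:**
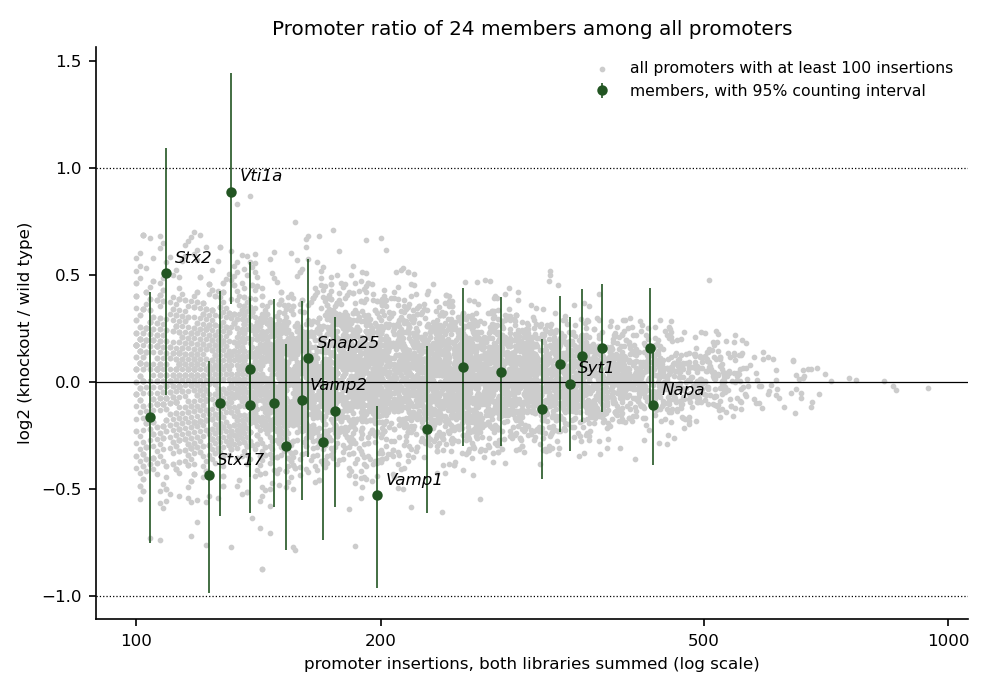
Log2 ratio of knockout over wild type against insertions summed over both libraries (log axis), with a grey point for each of 7509 promoters and a green point with its 95% counting interval for each of 24 members. Dotted lines mark 2-fold. Vti1a (0.89) lies at the upper edge of all promoters and Vamp1 (-0.53) near the lower edge.

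Vti1a, a SNARE of the trans-Golgi network and early endosomes, had the highest ratio of all 7509 promoters, so its value was picked out as an extreme. Its counts were 47 in the wild-type and 84 in the knockout library (0.89, 0.36 to 1.44). An end of Zdhhc6 lies in the same window, so the count cannot be assigned to either gene. The difference was present on each strand, with 24 and 46 insertions on the plus strand and 23 and 38 on the minus strand. It was spread along the window: 9 of the 10 bins of 100 bp within 500 bp of the start had more knockout insertions, with 22 and 42 before the start and 27 and 45 after it. The strands and bins divide the same insertions that picked Vti1a out, so they are no separate check of the difference. Away from the promoter the Vti1a gene, which is 311 kb long, showed less difference. Its stronger distal open regions held 25 and 33, 30 and 29, and 23 and 23 insertions at 16.8, 293.1 and 240.4 kb from the start, each with an interval that included 0.

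Vamp1, a synaptobrevin of synaptic vesicles, was the lowest of the 24 and rank 34 from the bottom among the 7509. The promoter held 119 and 79 insertions (-0.53, -0.96 to -0.11), with 91 and 60 before the start and 28 and 19 after it. Of the 10 bins within 500 bp, 6 had more wild-type insertions, 3 were equal and 1 had more knockout insertions. As for Vti1a, these parts divide the same insertions that picked the gene out. Over the whole Vamp1 locus the counts were 180 and 135 (-0.35, -0.69 to -0.03), of which the promoter region held 114 and 76.

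**Figure D4:**
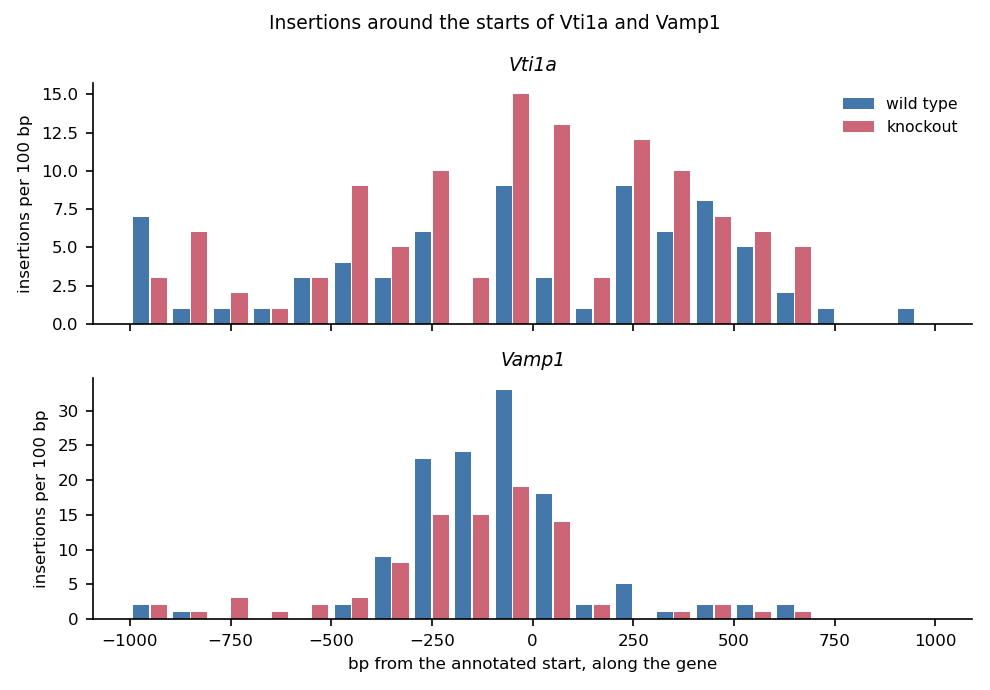
Insertions per 100 bp from 1000 bp before to 1000 bp after the annotated start of Vti1a (upper) and Vamp1 (lower), with a bar for each library. The knockout bars are taller in 9 of the 10 Vti1a bins within 500 bp of the start, and the wild-type bars in 6 of the 10 Vamp1 bins.

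The next largest ratios had intervals that included 0. Stx2, a syntaxin of epithelial and other plasma membranes, held 46 and 63 insertions (0.51, -0.06 to 1.09), and Vti1b (0.16, -0.14 to 0.46) and Vamp3 (0.16, -0.12 to 0.44) followed on the higher side. On the lower side, Stx17, of autophagosomes, held 72 and 51 (-0.43, -0.99 to 0.10), followed by Snap47 and Nsf, given above. By role, 7 of the 9 groups had a summed log2 ratio between -0.10 and 0.03. The synaptotagmins that are not counted as calcium sensors (Syt4, Syt11, Syt12, Syt13 and Syt17) held 110 and 83 (-0.35, -0.78 to 0.08). The plasma membrane syntaxins held 62 and 86 (0.53, 0.04 to 1.03), of which Stx2 gave most. At the annotated starts with most insertions, an alternative added after the values were seen, the same 4 genes held 154 and 160 (0.11, -0.21 to 0.44).

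Counted over whole loci, the members held 18410 insertions in the wild-type and 18542 in the knockout library. The log2 ratio was 0.07 (0.04 to 0.10), against a median of 0.06 over all 16724 loci with at least 100 insertions and 0.06 over the 42 such members. Scaled to all autosomal insertions the sum gave 0.01 (-0.02 to 0.04). The interval lay above 0 in 6 of 42 members, Nsf, Vti1a, Stx8, Syt13, Syt6 and Syt2 (background 8.4%), and below 0 in Vamp1 (background 1.32%). Under the other scaling only Vti1a was above 0 (background 3.11%), and Vamp1 and Cplx4 were below (background 3.89%).

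Most of the loci that stood higher hold few of their insertions in open regions. The Syt2 locus had 800 and 876 insertions (0.19, 0.05 to 0.33) with none in an open region, and the Syt6 locus had 537 and 588 (0.19, 0.02 to 0.36) with 8 and 16 of them in one. For Stx8 the counts were 786 and 847 (0.17, 0.03 to 0.31), for Syt13 202 and 243 (0.33, 0.05 to 0.60), for Vti1a 1571 and 1713 (0.18, 0.08 to 0.28) and for Nsf 721 and 772 (0.16, 0.01 to 0.31). The Cplx4 locus had 478 and 416 insertions (-0.14, -0.33 to 0.05).

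The 43 loci held 114 open regions, of which 37 lay at the chosen promoters (3192 and 3001 insertions, -0.03, -0.10 to 0.04) and 9 at other annotated starts (287 and 275). A further 12 lay within 1000 bp of a gene end, 9 of them beside another gene and 3 beside the member's own end (Snap25, Syt5 and Syt17), and 56 were distal, over 1000 bp from every gene end and at no annotated start of the member. The distal regions were small, with a median of 23 insertions summed against 133 at the promoters, and lay in 17 of the loci, 54 of them inside the gene. Together they held 909 and 863 insertions (-0.02, -0.15 to 0.12). The split by use gave 25 distal regions in 6 loci of neuronal members and 20 in 6 loci of broad members, in genes of unlike length.

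Syt1, which spans 513 kb, held 12 of the 56, from 31.2 to 486.3 kb inside the gene. The strongest distal region of all members was among them, 331.1 kb from the start (chr10:108679551-108680300), with 70 wild-type and 85 knockout insertions (0.34, -0.13 to 0.82). A region 178.8 kb inside held 35 and 31. Of the ribbon synapse genes, Cplx4 had a region 4.95 kb inside with 47 and 48 insertions, close in level to its promoter region at 65 and 55, and weaker ones with 27 and 13 and 14 and 9. Stx3 had a region 5.53 kb inside with 34 and 32 and in all 7 open regions in its locus, of which 1 lies at an end of Mrpl16. Snap25 had a region 31.7 kb inside with 36 and 32 (chr2:136744901-136745350).

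The other strong distal regions were in genes of general use. Nsf had 6, the strongest 100.4 kb inside with 35 and 41 insertions, and Napa had a region 6.27 kb inside with 38 and 36. Stx6 had a region 32.8 kb inside with 33 and 24. Cplx3 and Vamp2, both synaptic, had none. All of the open regions of the Cplx3 locus reached within 500 bp of its start end, with 1 centred 606 bp inside the gene. Of the 56, the interval of the ratio lay above 0 in 1 (background 0.833% of 23540 distal regions), in Nsf with 4 and 13 insertions. It lay below 0 in 2 (background 2.06%), in Cplx2 with 12 and 3 and in Syt7 with 11 and 2, all at 17 or fewer insertions summed.

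**Figure D5:**
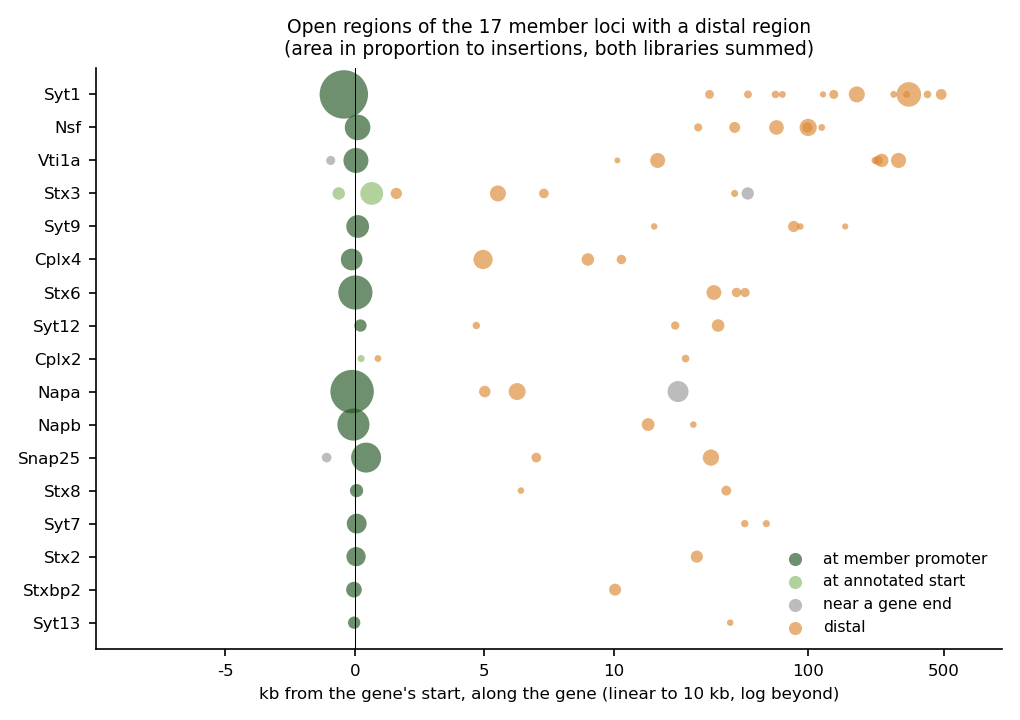
Open regions of the 17 member loci that have a distal region, by distance from the start of the gene in kb (linear to 10 kb, log beyond), with the area of each point in proportion to insertions summed over both libraries and the colour giving the kind. Syt1 has 12 distal regions and the largest distal point, and the 3 distal regions of Cplx4 lie within 10.95 kb of its start.

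Other genes of the same machinery were counted in lists by role. Of 29 other SNAREs and fusion factors, 22 had an open promoter and 13 held at least 100 insertions, with a median log2 ratio of 0.09. Of those 13, none passed 1.5-fold in either direction, and the extremes were Stxbp5 (-0.38) and Syt14 (0.32). Of 26 partners at the vesicle and active zone, 21 had an open promoter and 16 held at least 100 insertions, with a median of -0.02. None of those 16 passed 1.5-fold either, and the extremes were Slc17a7, the vesicular glutamate transporter of photoreceptors and bipolar cells (-0.34), and Ctbp2, whose locus encodes the ribbon protein RIBEYE (0.37).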

How the data were processed

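Libraries were prepared with the Nextera DNA kit and sequenced on a NextSeq 500, per the labels. Per the submitters' processing notes, Trimmomatic 0.33, BWA and bedtools 2.23.0 were used on build GRCm38 (mm10), with BWA's version and any duplicate handling not given in the sources used here. Files deposited by the authors list 1 aligned read per line, with its coordinates and a score, the mapping quality as deposited, with no normalization.

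From these, 5′ ends of reads with mapping quality at least 10 were shifted by 4 bp (plus strand) or -5 bp (minus strand) and counted once per position and strand. Depth was 7635799 and 7646373 insertions. Pooling the libraries, windows of 200 bp, stepped by 50 bp, became open regions where their count had a Poisson p below 1e-05 (expected count: genome mean, or that of the nearest 10000 bp if higher), and were joined across gaps of up to 150 bp (36839 regions, median 400 bp). Ratios are log2 with a pseudocount of 0.5, scaled by 0.960, the ratio of the libraries' autosomal insertions in open regions; all autosomal insertions give 1.002, a shift of 0.06. Region and ratio calls were tested on simulated data. Python 3.11.15, numpy 2.4.6, scipy 1.17.1 and pandas 2.3.3 were used.

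The members, gene lists and motifs were chosen with earlier results of these data known. Named members were the 2 with most insertions in each role group, the largest ratios in each direction, those with a locus interval off 0, those with the strongest distal regions and Stx3, Cplx3, Cplx4, Vamp2, Snap25 and Syt1; others are named to complete a group. Alternatives changed scaling, repeats, mapping quality, shift, window, promoter position and region threshold. Gene positions and sequences come from RefSeq tables of GRCm38.p6, with 33 members matched to an annotated start.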

Additional observations from a re-analysis of the deposited data

How the results depend on the processing

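The summed promoter ratio of the members stayed between -0.08 and -0.02 over 10 alternatives, within its counting interval. The locus ratio of 0.07 was 0.00787 when scaled to all autosomal insertions, -0.0232 in open regions alone and 0.103 outside them. Of all autosomal insertions, 19.6% of the wild-type and 18.8% of the knockout library lay in open regions. Scaled to all autosomal insertions, the members' insertions outside open regions (13359 and 13771) gave 0.041 (0.007 to 0.076). How far the share in open regions sets these ratios was not tested. The count of members higher in the knockout at 2-fold, 0, became 1 (Vti1a) at 1.5-fold and 1 with all reads kept, and the count lower was 0 under all 6 alternatives. Vti1a kept its direction over 8 alternatives (0.71 to 1.21), as did Vamp1 (-0.59 to -0.42). Members with an open promoter numbered 29 to 36. A Poisson p under 1e-08 left 74 of 114 open regions and 34 of the 61 over 1000 bp from every gene end. Depth limits all ratios under 100 insertions. No paired analysis was possible because each genotype has 1 library.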

Other observations

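The flanks of some member loci hold promoters of neighbouring genes, named after their values were seen. The Vamp2 locus includes the open region of Per1, a core gene of the circadian clock, with 207 wild-type and 200 knockout insertions, of 450 and 426 in the locus, more than the 75 and 73 of Vamp2's own region. The Vamp3 locus likewise includes the region of Per3, another clock gene, with 153 and 154 of its 470 and 489 insertions. In the Stx5a locus the region of Nxf1, an RNA export factor, held 113 and 84 of 284 and 244 insertions, and in the Snap23 locus the regions at Zfp106 and Lrrc57 held 53 and 53 and 19 and 17. The log2 ratios were 0.01 for the Per1 region (-0.28 to 0.30), 0.07 for the Per3 region (-0.26 to 0.40) and -0.37 for the Nxf1 region (-0.79 to 0.05).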
